A study of Jatropha curcas with 15 samples.

Results

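A set of 177 microarray probes was upregulated in inflorescence buds of *Jatropha curcas* at the 3-h time point after treatment with 6-benzyladenine (BA, a synthetic cytokinin) and lay below its starting level at the 12-h time point. The probes were chosen by their measured values. In the log2 table that the authors deposited, the mean of the 3 arrays at 3 h had to exceed the mean at 0 h by at least 0.8, and the mean at 12 h had to lie at least 0.8 below it. Only the 32303 of 41651 probes whose spots were well above background on all 15 arrays could qualify. Of these, 178 met both thresholds. CUST_13129 was left out by name, which left 177 probes, or 0.548% of those that could qualify. Because the 3-h and 12-h values chose the probes, they are described below without a test.

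All buds came from field-grown plants of 1 year of age and all but the 0-h buds carry a label for treatment with 1 mM BA, also called 6-benzylaminopurine. The 5 collection times were 0, 3, 12, 24 and 48 h, each with 3 biological replicates and 1 single-colour array per replicate. No untreated buds of the later time points were measured, so an effect of BA, the time of day and bud age cannot be told apart. The buds are a mixed tissue, in which fewer cells of a type and less RNA per cell cannot be told apart either.

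Cytokinins are plant hormones that promote cell division and act on the activity of shoot and inflorescence meristems. They are perceived by membrane-bound histidine kinases and their signal passes through phosphotransfer proteins to response regulators, among them transcription factors in the nucleus. Among the transcripts of the set with a description were those of proteins that bind chlorophyll in the antennae of the photosystems and of aquaporins, the channels through which water crosses the plasma membrane.

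A description was at hand for 12 of the 177 probes, and each came from the similarity of the target to a protein of another plant. The tables that pair probes with descriptions or sequences are held only in part, so a probe without one is called unnamed. A probe is a 60-base DNA strand that captures the labelled RNA of 1 transcript. Sequences were at hand for 28 of the 177 probes. Their GC content had a median of 43.3% (35 to 50%), against 43.3% (25 to 60%) for the 2666 probes that had a sequence and passed the background filter, the 28 included. No genome position was assigned to them. The probes of the light-harvesting complex I proteins come first, because they show that several chosen probes read overlapping stretches. Capitals mark the longest run that a probe shares with another chosen probe.
CUST_3456, light-harvesting complex I protein Lhca3: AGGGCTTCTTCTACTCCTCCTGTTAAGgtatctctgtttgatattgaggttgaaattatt
CUST_11579, light-harvesting complex I protein: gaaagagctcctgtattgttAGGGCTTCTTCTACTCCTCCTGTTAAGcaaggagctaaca
CUST_17153, chlorophyll a/b-binding protein: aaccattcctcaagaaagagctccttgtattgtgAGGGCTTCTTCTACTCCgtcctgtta
CUST_11194, unnamed, in parallel with these 3: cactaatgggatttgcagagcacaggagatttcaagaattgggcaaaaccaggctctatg
CUST_5497, another chlorophyll a/b-binding protein: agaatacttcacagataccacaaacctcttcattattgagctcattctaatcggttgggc
CUST_3456 and CUST_11579 shared a run of 27 bases, and both shared 17 bases with CUST_17153. In a local alignment CUST_11579 and CUST_17153 were identical in 44 of 47 columns. Since they overlap in sequence, these 3 probes are not independent of each other.

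The next sequences belong to the aquaporins, the heat shock cognate protein, the carotenoid cleavage dioxygenase and the polygalacturonase, the remaining probes with an informative description. No run of 14 or more bases joined any of them to another chosen probe.
CUST_20176, aquaporin PIP2.2: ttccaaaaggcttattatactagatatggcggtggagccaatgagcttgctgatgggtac
CUST_10456, aquaporin of the PIP subfamily: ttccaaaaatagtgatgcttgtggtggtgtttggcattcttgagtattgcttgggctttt
CUST_20024, heat shock cognate protein HSC70-1: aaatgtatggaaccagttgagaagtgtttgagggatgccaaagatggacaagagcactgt
CUST_36091, carotenoid cleavage dioxygenase CCD1: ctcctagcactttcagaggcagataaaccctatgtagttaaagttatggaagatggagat
CUST_17868, polygalacturonase precursor: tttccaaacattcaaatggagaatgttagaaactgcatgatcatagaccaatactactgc
Unnamed probes that the results below turn on are known here by their sequence alone. CUST_10240 and CUST_10294 shared a run of 16 bases, again in capitals.
CUST_11305: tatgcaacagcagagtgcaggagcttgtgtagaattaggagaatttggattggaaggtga
CUST_10240: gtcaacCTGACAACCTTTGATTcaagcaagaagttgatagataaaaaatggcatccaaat
CUST_10294: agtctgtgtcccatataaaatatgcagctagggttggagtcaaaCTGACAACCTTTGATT
CUST_1007: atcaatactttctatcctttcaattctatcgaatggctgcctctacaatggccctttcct
CUST_11776: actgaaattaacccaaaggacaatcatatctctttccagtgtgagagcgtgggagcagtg

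Levels are given below as log2 processed intensity minus the 75th percentile of the same array, and they compare a probe with itself, not probes with each other. At 0 h the 177 probes ranged from -5.97 to 5.50 on this scale, with a median of -1.07. Relative to each probe's own 0-h mean, the median of the 177 probes was higher by 1.48, 0.98 and 1.05 on the 3 arrays at 3 h. It was -1.35, -1.31 and -1.77 on the 3 arrays at 12 h. The arrays at 24 h gave medians of 0.07, 0.13 and -0.03, and those at 48 h 0.26, 0.36 and 0.14. The median of all probes that were well above background on every array stayed between -0.06 and 0.05 on all 15 arrays. The 177 probes thus moved as a block at 3 h and 12 h by construction, and their centre was back within 0.36 of the 0-h level on each later array.

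**Figure D1:**
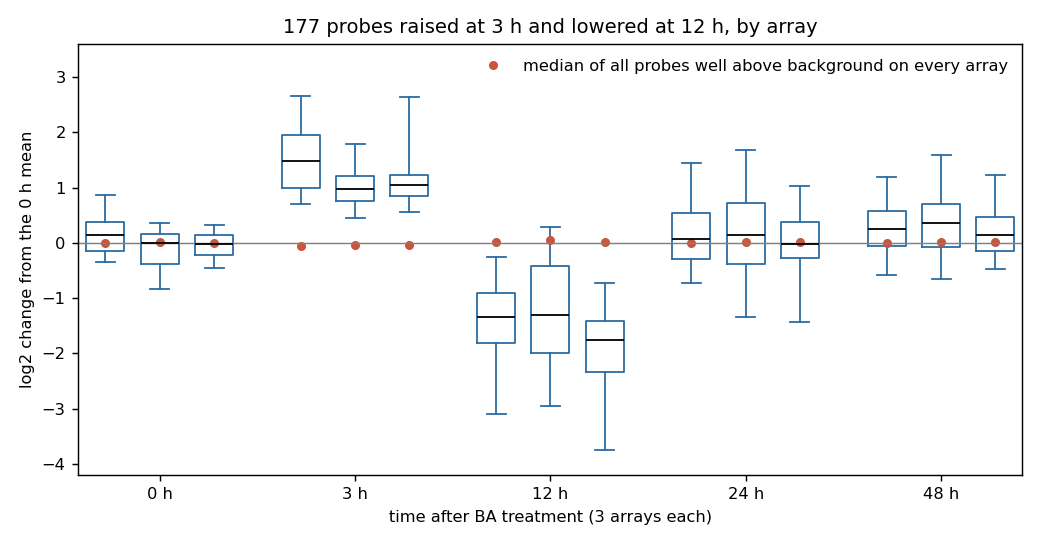
Log2 change of the 177 probes from their own 0-h means on each of the 15 arrays, ordered by time after BA treatment (horizontal axis). Boxes show the quartiles and median, whiskers the 5th and 95th percentiles, and the red points the median of all probes well above background on every array, which stayed between -0.06 and 0.05 while the 177 probes had medians of 0.98 to 1.48 at 3 h and -1.77 to -1.31 at 12 h.

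In the mean of the arrays the median change was 1.10 at 3 h (2.14-fold higher; range 0.80 to 3.53) and -1.34 at 12 h (2.53-fold lower; range -6.45 to -0.82). Of the 32303 probes that could qualify, 3.15% met the 3-h threshold and 7.36% met the 12-h threshold, and nothing is read from these shares. The arrays lay on 4 slides, and each slide held only 1 or 2 time points. All arrays of slides 1 and 2 took part in the choice of the probes. Their counts and medians below were largely set by the rule and are no check on it. Within slide 1, which held the 0-h arrays and 1 array at 3 h, all 177 probes were higher at 3 h, with a median difference of 1.48. Within slide 2, 176 of 177 probes were lower at 12 h than at 3 h, by a median of -2.53, against -2.58 over all arrays. The exception, CUST_37668, had levels of 1.47, 2.34 and -2.91 on the arrays at 12 h and qualified through the last of these. Within slide 3, which held 1 array at 12 h and all arrays at 24 h, 174 of 177 probes were higher at 24 h, by a median of 1.81. The 3 exceptions, CUST_5497, CUST_9215 and CUST_13811, belonged to the same set of parallel probes, described below.

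The arrays at 12 h differed in depth of the decline. At replicate 2, 24 of the 177 probes lay above their 0-h mean, against 3 at replicate 1 and 0 at replicate 3. Just inside the 3-h threshold lay CUST_11194, CUST_35152 and CUST_14638, with 0.80 each, and just outside it CUST_16239, CUST_7859 and CUST_16097, with 0.79 each. Just inside the 12-h threshold lay CUST_13122, CUST_1595 and CUST_2854, with -0.81 each, and just outside it CUST_23099, CUST_469 and CUST_4100, with -0.797, -0.797 and -0.796. A further 51 probes met both thresholds but were not well above background on all arrays, and they were not analysed here.

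The unnamed probe CUST_11305 had the widest swing by the smaller of its 2 changes. Its levels were 0.55, -0.34 and 0.73 at 3 h and -7.44, -5.36 and -7.11 at 12 h, against -2.52, -3.46 and -3.68 at 0 h. All 3 arrays at 3 h lay above all of those at 0 h, and all 3 at 12 h below them. The rule favours such separation, which 158 of the 177 probes showed at 3 h and 122 at 12 h. The share over all probes is not given, so nothing is read from these counts. The change of CUST_11305 was 3.53 at 3 h and -3.42 at 12 h. Its level was back to -2.95, -3.05 and -2.31 at 24 h and -2.84, -3.0 and -2.79 at 48 h.

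CUST_21602, CUST_22550, CUST_23544, CUST_23979 and CUST_3002, also unnamed and also among the 10 widest swings, moved as 1. Their changes lay between 2.64 and 2.87 at 3 h and between -1.91 and -1.67 at 12 h. CUST_23544 had levels of -0.21, -1.58 and 0.07 at 3 h and -5.21, -5.27 and -4.94 at 12 h, against -2.93, -3.21 and -3.54 at 0 h. At 3 h replicate 2 was the lowest array in each of the 5 probes, and it still lay above every 0-h array.

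The remaining probes among the 10 widest swings differed in their spread. CUST_34293 was tight, with levels of 0.66, 0.18 and 0.66 at 3 h and -2.70, -2.61 and -3.25 at 12 h, against -1.07, -1.25 and -1.26 at 0 h. CUST_15568 spread widely at 12 h, with levels of -2.64, -4.77 and -7.20, against -0.46, -2.02 and -1.77 at 0 h. CUST_31991 varied widely at every time point, for example -4.95, -1.14 and -3.20 at 48 h. CUST_10240 had levels of -1.49, -2.93 and -2.50 at 3 h and -4.87, -6.05 and -6.46 at 12 h, against -3.13, -4.22 and -4.49 at 0 h. CUST_10294, with which it shares 16 bases, correlated with it over the 15 arrays at r = 0.997.

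Many of the 177 probes ran in parallel. Joined so that every pair within a set correlated at 0.98 or more over the 15 arrays, the probes formed 79 sets, of which 46 held 1 probe, 33 held 2 or more and 15 held 4 or more. The 15 larger sets together held 87 of the 177 probes. The array carries several probes for many transcripts. As a measure of what such probes look like, 18 pairs of probes on the array shared a run of 30 or more bases, were well above background throughout and varied at least as much as the least variable chosen probe. These pairs had correlations between 0.995 and 1.00, with a median of 0.999. A set in parallel may therefore be 1 transcript or several transcripts that moved together, and for most sets this was not tested because only 28 probes had a sequence. The sets were formed after the values had been seen and describe the data only.

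**Figure D2:**
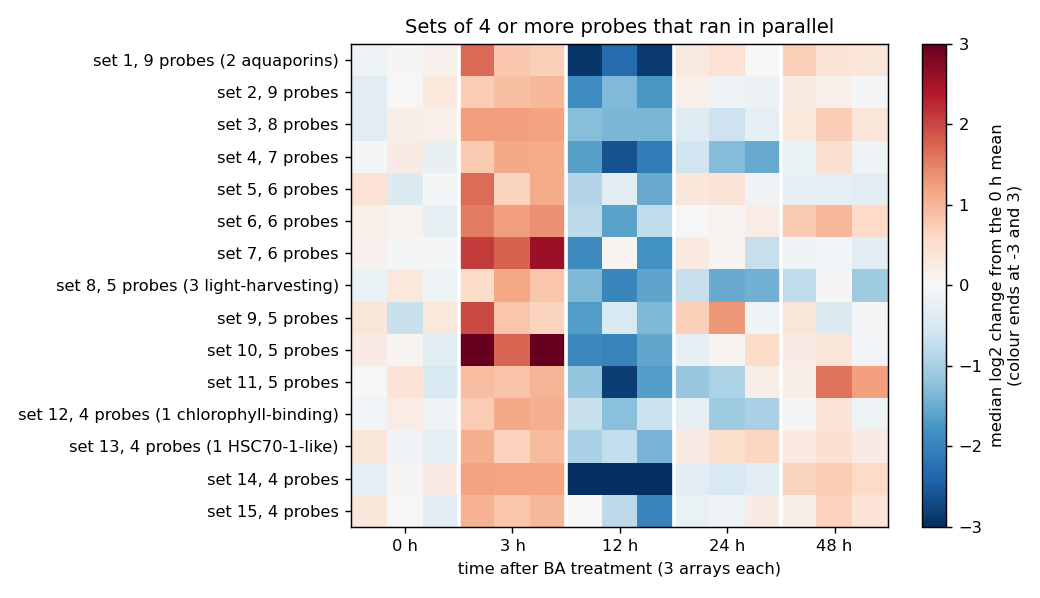
Median log2 change from the 0-h mean (colour, ending at -3 and 3) of the 15 sets of 4 or more parallel probes (rows), on the 15 arrays ordered by time after BA treatment (columns). The sets share the rise at 3 h and the decline at 12 h that chose them and differ at 24 h and 48 h, where sets 4 and 8 had medians of -1.15 and -1.23 at 24 h and set 11 had a median of 0.99 at 48 h.

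The deepest decline at 12 h belonged to a set of 4 unnamed probes, CUST_14638, CUST_1581, CUST_30027 and CUST_425, which correlated with each other at 0.997 or more. CUST_14638 had levels of 6.36, 6.22 and 6.35 at 3 h and -0.28, -1.52 and 0.35 at 12 h, against 5.23, 5.52 and 5.74 at 0 h. The arrays at 12 h thus lay far below all others. The changes of the 4 probes at 12 h lay between -6.45 and -5.94. At 24 h their changes from 0 h were -0.43 to -0.30 and at 48 h 0.53 to 0.77, and none of the 4 was called at either time.

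Both chosen aquaporin probes belonged to a set of 9 parallel probes, of which the other 7 were unnamed. CUST_20176 was similar to the castor bean aquaporin PIP2.2, a water channel of the plasma membrane. It had levels of 2.89, 2.04 and 1.94 at 3 h and -1.78, -1.14 and -1.68 at 12 h, against 1.05, 1.18 and 1.31 at 0 h. It lay at 1.44, 1.58 and 1.09 (24 h) and at 1.96, 1.58 and 1.55 (48 h), a change from 0 h of 0.19 ± 0.24 and 0.52 ± 0.24 (log2, standard error of the fit). CUST_10456, similar to a poplar aquaporin of the same subfamily, had levels of 2.11, 1.39 and 1.34 at 3 h and -1.26, -1.17 and -1.33 at 12 h, against 0.53, 0.72 and 0.71 at 0 h. The groups at 3 h, 12 h and 0 h did not overlap in either probe, a separation that the rule favours. For the whole set of 9, the median change was 1.09 at 3 h and -2.66 at 12 h. The set's later medians were 0.22 (24 h) and 0.48 (48 h).

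CUST_3456, CUST_11579 and CUST_17153, the light-harvesting probes with overlapping sequence, formed a set of 5 with CUST_11194 and CUST_12114, both unnamed. It is called the CUST_11579 set below. Light-harvesting complex I proteins hold the chlorophyll that passes light energy to photosystem I. CUST_11579 had levels of -0.09, 0.48 and 0.17 at 3 h and -2.01, -2.70 and -2.46 at 12 h, against -0.82, -0.35 and -0.83 at 0 h. It remained low at 24 h, at -1.41, -2.36 and -2.32, and lay at -1.56, -0.65 and -1.77 at 48 h. CUST_3456 had a change of 0.92 at 3 h and -1.58 at 12 h, and CUST_17153 had 0.83 and -1.65. CUST_5497, similar to another chlorophyll a/b-binding protein, belonged to a different set, and correlated with these 3 probes at 0.942 to 0.952. Its levels were 1.99, 2.33 and 2.29 at 3 h and 0.57, -0.05 and 0.63 at 12 h, against 1.13, 1.45 and 1.09 at 0 h.

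CUST_20024 was similar to HSC70-1, a chaperone that helps proteins fold and is made without heat stress. Its levels were 3.31, 2.92 and 3.11 at 3 h and 1.19, 1.47 and 0.79 at 12 h, against 2.57, 2.09 and 1.94 at 0 h, without overlap between the time points. CUST_36091 was similar to *Arabidopsis* CCD1, an enzyme that cleaves carotenoids into smaller volatile compounds. Its levels were -0.13, -0.12 and -0.16 at 3 h and -1.94, -2.34 and -2.16 at 12 h, against -1.55, -0.88 and -1.29 at 0 h. CUST_17868 was similar to a polygalacturonase, an enzyme that cuts pectin in the cell wall. Its levels were -0.23, -0.48 and -0.51 at 3 h and -3.05, -3.38 and -2.20 at 12 h, against -1.67, -1.04 and -1.03 at 0 h.

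CUST_18738 and CUST_20132 matched *Arabidopsis* proteins of unknown function, and the description of CUST_1595 gave only the number of a rice locus. CUST_18738 declined the most of these at 12 h, with levels of -4.13, -3.94 and -3.98, against -1.35, -0.66 and -0.95 at 0 h. CUST_20132 had -3.48, -3.60 and -3.61 at 12 h, against -2.53, -2.0 and -2.02 at 0 h.

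**Figure D3:**
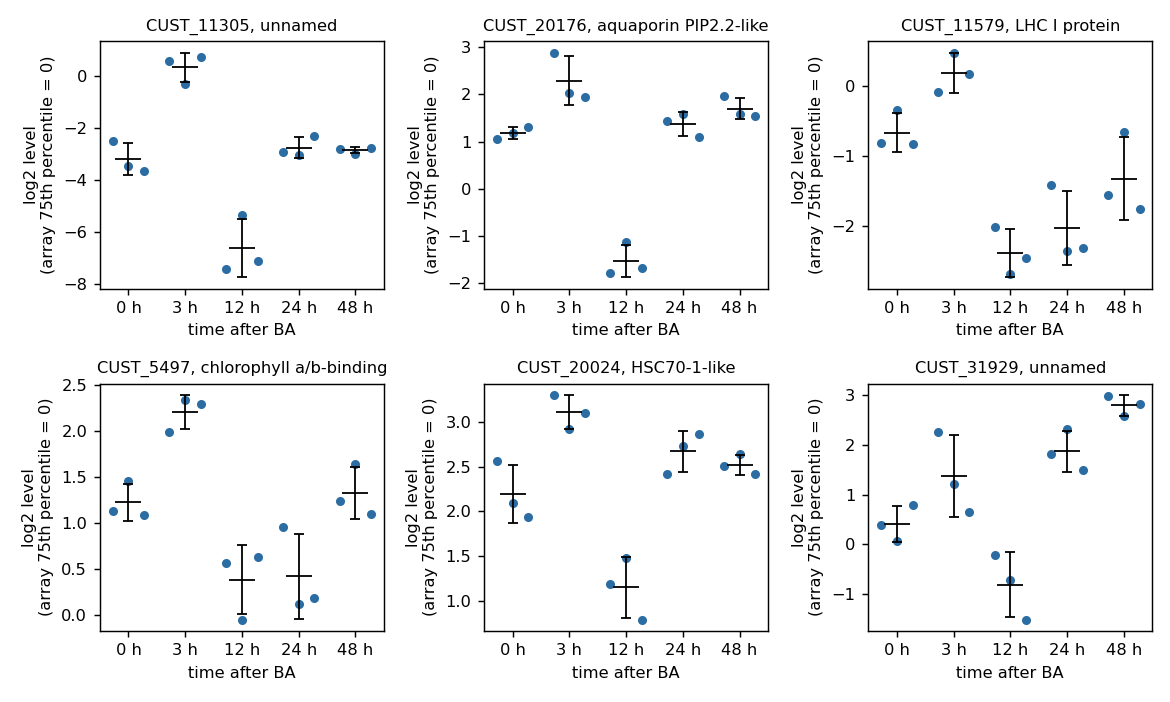
Log2 level of 6 probes on each array (points) by time after BA treatment, with the mean and SD of the 3 arrays (bars); 0 is the 75th percentile of the array. CUST_11305 reached -7.44 to -5.36 at 12 h, CUST_11579 remained at -2.36 to -1.41 at 24 h, and CUST_31929 was highest at 48 h, at 2.57 to 2.98.

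The probes were chosen on the 0-h, 3-h and 12-h levels, so the comparisons with 0 h share arrays with the choice. The arrays at 24 h and 48 h took part only through the background filter, which every probe had to pass on all 15 arrays. Each probe was tested with limma in a fit over all 15 arrays, and a call needed a Benjamini-Hochberg adjusted p of 0.05 or less together with a change of 2-fold or more. At 24 h, 12 of the 177 probes were lower than at 0 h and 2 were higher, against 0.999% lower and 2.18% higher among the 34448 probes tested and 0.938% and 1.39% among those of them well above background on all 15 arrays. At 48 h, 6 probes were higher and none was lower, against 1.86% higher and 0.813% lower among all probes tested and 1.11% and 0.706% among those well above background on all 15 arrays. At any fold, an adjusted p of at most 0.05 was reached at 24 h by 17 probes that were lower and 4 that were higher, against 7.26% and 7.3% of all probes. At 48 h it was reached by 23 that were higher and 0 that were lower, against 7.44% and 6.33%. An unadjusted limma p of at most 0.05 was reached at 48 h by 42 of the 177 probes and by 10577 of the 34448 tested. Called at neither time were 159 of the 177 probes. A change within 1.5-fold of 0 h at both times was measured for 89 probes (50.3%), against 82.4% of all probes tested. The median change was 0.16 at 24 h and 0.19 at 48 h, against 0.01 and 0.02 over all probes tested.

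The downregulation at 24 h was that of the CUST_11579 set and of 1 other set. Of the 12 probes called lower, 11 belonged to these sets, and the other was CUST_31867. All 5 probes of the CUST_11579 set fell, 3 of them with a light-harvesting description. CUST_11579 was 2.58-fold lower at 24 h than at 0 h (log2 change -1.37 ± 0.32, limma adjusted p = 0.0161), and none of its 24-h arrays reached the lowest 0-h array. The log2 change was -1.26 ± 0.30 for CUST_17153, -1.18 ± 0.31 for CUST_3456 and -1.23 ± 0.27 for CUST_11194, with adjusted p of 0.0182, 0.0268 and 0.0137 in limma. CUST_5497 had a log2 change of -0.81 ± 0.24 (limma adjusted p = 0.041), short of the 2-fold threshold. At 48 h the 5 probes of the set had changes of -0.70 to -0.46 and CUST_5497 had a change of 0.10, and none of the 6 was called.

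In the other set, 6 of 7 unnamed probes fell at 24 h. CUST_441 had levels of 0.80, -0.18 and -0.28 at 24 h, against 1.36, 1.55 and 1.18 at 0 h, a change of -1.25 ± 0.30 (limma adjusted p = 0.0171). CUST_1007, whose sequence is given above, had a change of -1.15 ± 0.28 (limma adjusted p = 0.0183). In both sets replicate 1 was the highest of the 24-h arrays. These calls rested on few arrays, since no probe was called at 24 h when replicate 2 at 0 h was left out, and 0 and 1 were called lower when replicate 2 or replicate 3 at 24 h was left out. With the slide as a fixed block, or with normexp background correction, 0 of the 177 probes were called at 24 h. With no scaling between arrays, 8 were called higher and 3 lower. The share of all probes called under each of these settings is not given. A loss of calls particular to the 177 probes thus cannot be told from a general one. The unscaled 75th percentile was 12.59, 12.53 and 12.67 on the 24-h arrays, against 12.43, 12.51 and 12.31 at 0 h, an offset that enters every unscaled change.

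A rise at 24 h was called for CUST_31929 and CUST_31930 only, which formed a set of their own. CUST_31929 had levels of 1.81, 2.31 and 1.49 at 24 h and 2.98, 2.57 and 2.83 at 48 h, against 0.39, 0.06 and 0.79 at 0 h. Both later groups lay wholly above the 0-h arrays. It was 2.75-fold higher at 24 h (log2 change 1.46 ± 0.40, limma adjusted p = 0.0294) and 5.21-fold higher at 48 h (2.38 ± 0.40, limma adjusted p = 0.00441). CUST_31930 had levels of 0.68, 1.12 and 0.25 at 24 h and 1.09, 0.61 and 1.18 at 48 h, against -1.31, -1.58 and -0.71 at 0 h. Its log2 change was 1.88 ± 0.41 at 24 h and 2.16 ± 0.41 at 48 h (limma adjusted p = 0.0126 and 0.00787). With the slide as a fixed block the estimates at 24 h were larger and no longer called, at 3.84 ± 0.60 for CUST_31929 and 4.07 ± 0.71 for CUST_31930 (limma adjusted p = 0.0539 and 0.0781).

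Besides these, 4 probes rose at 48 h. The 48-h arrays had a slide of their own, scanned 6 days after that of the 0-h arrays. For every rise called at 48 h against 0 h, slide, scan day and time point therefore cannot be told apart. CUST_535, CUST_11776 and CUST_22937 formed 1 set in parallel. CUST_535 had levels of -0.37, -0.46 and -0.36 at 48 h, against -2.03, -1.48 and -1.40 at 0 h, and was 2.36-fold higher (log2 change 1.24 ± 0.20, limma adjusted p = 0.00393). The log2 change was 1.23 ± 0.21 for CUST_11776 and 1.16 ± 0.21 for CUST_22937. CUST_35152 had levels of -3.91, -3.0 and -3.41 at 48 h, against -5.06, -4.93 and -5.38 at 0 h (log2 change 1.68 ± 0.38, limma adjusted p = 0.0161), but with normexp background correction its change was 0.51 ± 0.56 (limma adjusted p = 0.525). With the intensities unscaled between arrays, 28 of the 177 probes were called higher at 48 h. The unscaled 75th percentile was 12.77, 12.72 and 12.65 on the 48-h arrays, against 12.43, 12.51 and 12.31 at 0 h. That offset enters the change of every probe under this setting, and the share called over all probes is not given, so nothing is read from the 28.

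The difference between 48 h and 24 h used none of the levels that chose the probes, although its arrays took part in the background filter. The spread behind its p-values was estimated over all 15 arrays, those that chose the probes included. In this comparison 13 of the 177 probes were higher at 48 h and none was lower. The shares were 0.72% higher and 1.38% lower among all probes tested, and 0.368% and 0.954% among those well above background on all 15 arrays. At any fold, 32 probes had higher values past an adjusted p of 0.05 in limma and 0 had lower ones, against 4.06% and 3.99% of all probes. The arrays at 48 h had a slide of their own, so that slide and time point cannot be told apart here. With the slide as a random block 7 probes were called. With only the 6 arrays of the comparison, 9 were called, 6 higher and 3 lower, and 3 of the 9 were among the 13. With the authors' log2 values in place of the intensities, 15 were called higher and 2 lower. For these alternatives too, the share called over all probes is not given.

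Of the 13 probes, 10 came from the set of CUST_441 and from the set of CUST_23535. CUST_441 had levels of 1.14, 1.78 and 1.16 at 48 h, against 0.80, -0.18 and -0.28 at 24 h, a difference of 1.25 ± 0.30 (limma adjusted p = 0.0248). At 48 h it had returned to its 0-h level, with a change of -0.003 ± 0.30. CUST_23535 had levels of -0.46, 1.03 and 0.60 at 48 h, against -1.86, -1.94 and -0.72 at 24 h (difference 1.89 ± 0.45, limma adjusted p = 0.0246). CUST_23872 and CUST_36584 of the same set differed by 1.86 ± 0.47 and 1.71 ± 0.47. With normexp the difference of CUST_36584 was 1.07 and not called. CUST_19832, unnamed, had levels of -0.58, -0.05 and -0.85 at 48 h, against -2.04, -2.61 and -1.94 at 24 h, and was 3.26-fold higher at 48 h (difference 1.70 ± 0.23, limma adjusted p = 0.00185). CUST_35152 differed by 1.38 ± 0.38 (limma adjusted p = 0.044), a call that was lost in 17 of 26 alternatives. With normexp its difference was 0.65 ± 0.56 (limma adjusted p = 0.684). Without replicate 2 at 24 h, 2 probes were called, without replicate 2 at 48 h 3, without replicate 3 at 48 h 7, and without replicate 2 at 12 h 20.

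**Figure D4:**
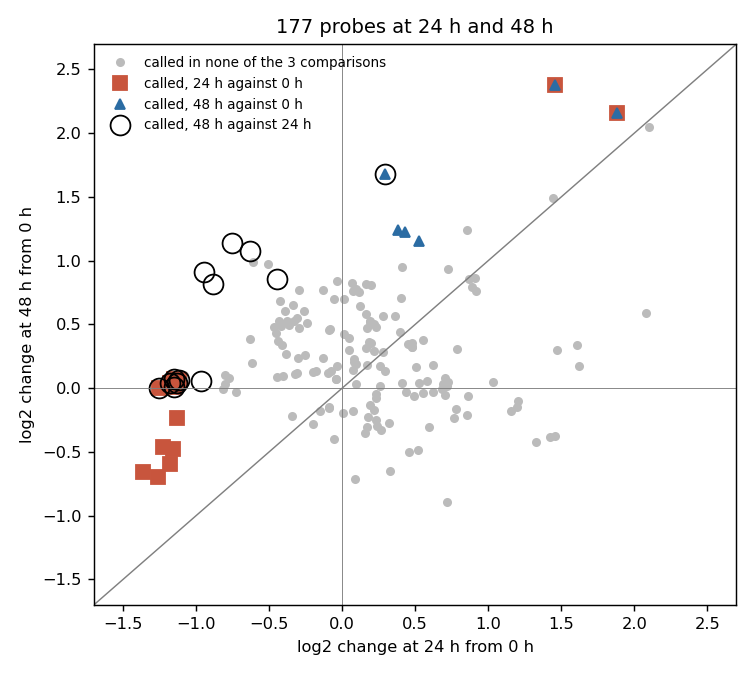
Log2 change of each of the 177 probes from 0 h at 24 h (horizontal axis) and 48 h (vertical axis), with the calls of the 3 comparisons marked and the line of equal change in grey. The 12 probes called lower at 24 h sit at the left, the 6 called higher at 48 h at the top, and the 13 circled probes, called in the comparison of 48 h with 24 h, all lie above the line.

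Profiles like this one were set beside it without a test. The opposite profile, lowered at 3 h and raised at 12 h by the same thresholds, was met by 37 probes. Of these, 0 were called higher and 0 lower at 24 h against 0 h, 0 higher and 1 lower at 48 h against 0 h, and 0 higher and 1 lower at 48 h against 24 h. A rise of at least 0.8 at 3 h with a change within 0.4 of the 0-h level at 12 h was met by 364 probes. At 24 h, 29 of these (7.97%) were called higher and 4 (1.10%) lower than at 0 h, against 2 (1.13%) and 12 (6.78%) of the 177 probes. Among all probes tested the shares were 2.18% and 0.999%. At 48 h against 24 h, 17 (4.67%) were called higher and 9 (2.47%) lower, against 13 (7.34%) and 0 of the 177 probes. The shares over all probes tested were 0.72% and 1.38%. Medians at 24 h were 0.16 for the 177 probes, -0.49 for the opposite profile and 0.46 for the profile without a decline at 12 h.

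Other probes of the named families were compared through lists made from words in the descriptions. Chlorophyll-binding proteins, photosystem subunits, Rubisco and phosphoribulokinase gave 19 tested probes, of which 4 belonged to the 177. Of the other 15, 13 were called lower at 12 h and 0 higher, and 6 were called lower at 24 h, against 5.54% lower and 3.5% higher at 12 h and 0.999% lower at 24 h among all probes tested. Many descriptions came from the authors' list of changed probes. The word lists are thus not independent of the calls, and nothing is read for whole families from these shares. Probes with a description were called more often at these times than all probes tested. Of 1094 such probes outside the 177, 132 were called lower and 85 higher at 12 h, and 19 lower at 24 h. Probes of a list may read the same transcript, so they are not taken as independent. At 3 h, 0 of the 15 were called in either direction, against 1.69% higher and 0.897% lower among all probes, and their median change was 0.19. CUST_12680, similar to a chlorophyll a/b-binding protein, missed the 3-h threshold with a change of 0.62 and lay at -2.74 at 12 h. CUST_32285, similar to the W protein of the photosystem II reaction centre, had a change of -0.08 at 3 h and -1.35 at 12 h.

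Aquaporins gave 8 tested probes, a list made after the values had been seen, and 2 of them belonged to the 177. The other 6 were all called lower at 12 h, against 5.54% of all probes tested and 132 of the 1094 described probes outside the 177. Their changes lay between -4.02 and -1.24 at 12 h and ran from -0.55 to 0.68 at 3 h. CUST_29556 and CUST_12305, both similar to PIP2.7, had -1.24 and -1.27 at 12 h, and whether they read 1 transcript was not tested. The 8 listed probes thus shared the low values at 12 h, and their values at 3 h lay on both sides of the 0-h level. Aquaporin probes without a description could not enter the list, so the whole family was not described. Heat shock proteins and chaperones gave 22 tested probes with 1 of the 177 among them. Of the other 21, 4 were called higher at 3 h, against 1.69% of all probes tested. At 12 h 1 was called higher and 1 lower, against 3.5% and 5.54%. None of the 29 tested flowering probes and none of the 113 tested phytohormone probes belonged to the 177. Since the 177 are 0.548% of the probes that could qualify, nothing is read from these counts of 0.

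**Figure D5:**
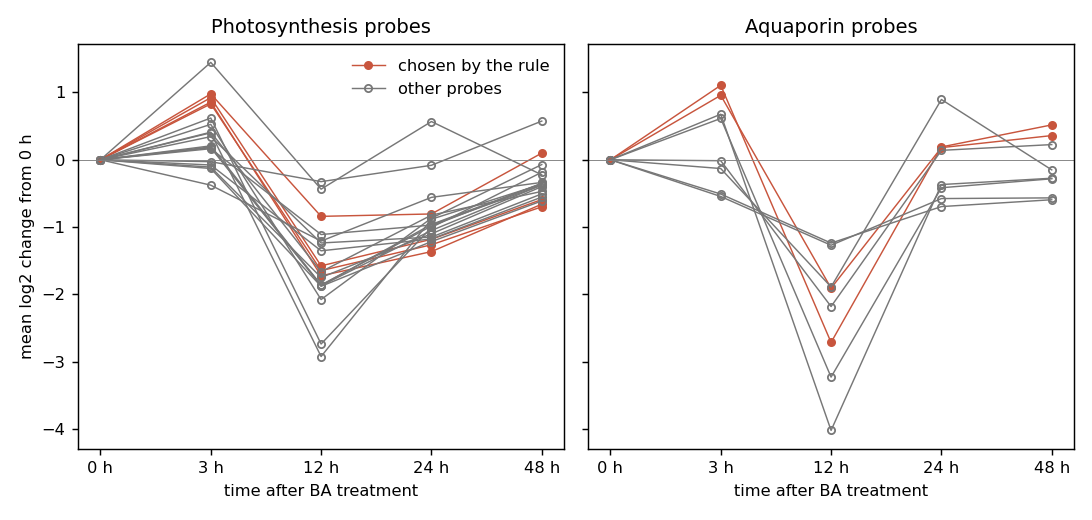
Mean log2 change from 0 h of the 19 photosynthesis probes and the 8 aquaporin probes (lines), by time after BA treatment. The probes among the 177 (4 and 2, filled) rose at 3 h by construction. All listed probes lay below 0 at 12 h, where the other listed aquaporins had changes between -4.02 and -1.24.

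Markers of the tissue were checked on all arrays. Of 8 floral identity probes, those of AP1, AP3, AG, SEP1, SEP2, SEP3 and STK were well above background on all 15 arrays, and that of PI on 5. At 12 h these 7 had changes between -2.15 and -0.48, and at 24 h between -0.39 and 0.27. The seed oil-body marker oleosin 2 was well above background on none of the 6 arrays at 0 h and 3 h and on all 9 later arrays. The part of these shifts in the decline of the 177 probes at 12 h was not tested.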

How the data were processed

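Inflorescence buds were measured at 5 time points on 15 single-colour Agilent arrays, 3 biological replicates each. The authors deposited each array's spot intensities from Agilent Feature Extraction 10.7.3.1, corrected for background and spatial trend, with median spot and local background intensities. They also deposited a log2 table, of which 99.98% of values differed by less than 0.1 from quantile-normalized log2 intensities; its scaling is not stated. It was used to choose the probes and as an alternative.

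Here, log2 processed intensities had each array's 75th percentile subtracted. Control and outlier spots were left out, repeated spots were averaged, and 34448 of 41651 probes were tested, those well above background in all 3 replicates of 1 or more time points. A linear model with time as its only factor was fitted with limma 3.58.1 in R 4.3.3, and p-values were adjusted by Benjamini-Hochberg over every probe tested. Errors are its standard errors. The fit was tested on simulated data. Other values were computed with Python 3.11.15, pandas and scipy. Between 79.0% and 84.0% of probes per array were well above background, no spot was saturated, and replicates correlated at 0.988 to 0.997. The number of arrays limits the precision. Slide 1, with the 0-h arrays and 1 array at 3 h, was scanned 6 days before the other 3 slides.

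The probes and lists were chosen with earlier results of these data known. Named probes were the 10 with the largest smaller change of the pair at 3 h and 12 h, all with a description, the 4 largest rises and falls among the calls of each comparison, the 3 on each side of each threshold, and those sharing sequence. Other probes were named after their values were seen. The alternatives were other scalings, background corrections and filters, slide and replicate blocks, fewer arrays, no moderation, and each array left out. Lists by hormone class, flowering, flavonoid, clock, cell wall, division, transcription factor, kinase, transporter, lipid, sugar and defence words held no more than 1 of the 177 probes each.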

Additional observations from a re-analysis of the deposited data

Results flagged for a closer look

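For 13 of the 177 probes the change from 0 h differed between 48 h and 24 h, by limma's test of that difference (adjusted p at most 0.05 and at least 2-fold). All 13 were higher at 48 h, against 0.72% higher and 1.38% lower among all probes tested. With only the 6 arrays of the comparison, 3 of these 13 were called. The 48-h change exceeded the 24-h change on the log2 scale by 1.89 for CUST_23535, 1.86 for CUST_23872 and 1.71 for CUST_36584, which ran in parallel. It exceeded it by 1.25 for CUST_441, 1.23 for CUST_1881, 1.22 for CUST_1007, 1.18 for CUST_9609, 1.18 for CUST_13348, 1.16 for CUST_7471 and 1.02 for CUST_6152, which formed another parallel set. The differences were 1.70 for CUST_19832, 1.38 for CUST_35152 and 1.30 for CUST_7764. The 48-h arrays had a slide of their own, so slide and time point cannot be told apart.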

How the results depend on the processing

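Quantile normalization, the authors' table and the median shift kept all 17 calls of named probes, and no named call changed direction under any alternative. At 24 h against 0 h, 14 probes were called, 0 with normexp and 0 with the slide as a fixed block, and 0 to 20 with 1 array left out. At 48 h against 0 h, 6 were called, 28 with no scaling between arrays, 3 with normexp, and 5 to 8 with 1 array left out. With no scaling, the brightness of whole arrays enters every change. At 48 h against 24 h, 13 were called, 1 with normexp, 7 with the slide as a random block, 6 without moderation, and 2 to 20 with 1 array left out. With only the 6 arrays of that comparison, 9 were called, 3 of them lower. Of the 17 named calls, 2 held with normexp, 11 without moderation, 0 of 7 with the slide as a fixed block, and 6 to 17 with 1 array left out. The share of all probes called under each alternative is not given, and the causes of these differences were not tested. The rule gave 177 probes, 87 at a threshold of 1 in place of 0.8, and 144 to 207 with 1 array left out. Without replicate 3 at 12 h it kept 127 of the 177. The median change at 24 h (0.16) was 0.34 with no scaling, -0.029 with normexp and 0.10 to 0.18 with 1 array left out; at 48 h (0.19) it was 0.49, 0.028 and 0.17 to 0.29. Within slides the medians were 1.48 (3 h minus 0 h) and 1.81 (24 h minus 12 h), against 1.10 and 1.54 over all arrays. Replicate numbers did not pair the samples, with correlations of same-numbered deviations from -0.27 to 0.38. With a replicate block 13, 6 and 10 probes were called at 24 h against 0 h, 48 h against 0 h and 48 h against 24 h. Joining parallel probes at 0.95 or 0.99, chosen after seeing the data, gave 60 and 95 sets in place of 79.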
